A study of Drosophila melanogaster with 28 samples.

Results

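Chromosome 4 of Drosophila melanogaster was examined in 67407 windows of 40 bp at 20-bp steps, which are all the deposited windows of that chromosome and come from 6883112 windows in all. The windows were sorted by the Release 6 annotation into 7240 promoter windows (10.7%, within 500 bp of an annotated transcript start), 47903 gene-body windows (71.1%) and 12264 intergenic windows (18.2%, the spacers). They hold 80 protein-coding genes, 30 genes of non-coding RNA, 7 pseudogenes and 1 snoRNA gene, and 566 transposable element insertions of 51 families. Of these insertions 344 were INE-1 elements and 60 were 1360 elements.

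Chromatin came from testis tumours made by overexpression of the ligand Unpaired (UAS - Upd). In the germline group a nanos driver was used (GAL4::VP16-nanos.UTR, in a y[1] w[1118] P{hs70FLP} background), and the chromatin is labelled GSC-like, for germline stem cells. In the cyst group a traffic Jam - GAL4 driver was used in a w[1118] background, and the chromatin is labelled CySC-like, for cyst stem cells. Flies of both groups also carried UAS-FRT-H3-GFP-FRT-H3-mKO, which gives a GFP-tagged histone H3. Driver, strain background and tumour type differ together and cannot be told apart. Pairs of testes were pooled for each preparation. A fusion of protein A and micrococcal nuclease (MNase), guided by an antibody against GFP, released the tagged chromatin. Part of it was kept as input, and immunoprecipitation (IP) of the remainder was done for H3K4me3 (2 replicates per tumour type), H3K27me3 (3 replicates) or H3K9me3 (2 replicates). Each preparation gave 1 input and 1 IP library, or 28 libraries in 12 groups. For H3K4me3 each tumour type had its own flow cell, so the effects of these cannot be told apart there. Replicate 3 of the germline H3K27me3 libraries was on a flow cell with no cyst library.

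Chromosome 4, the small dot chromosome of the fly, carries repeats and heterochromatin proteins along its gene-rich arm, yet many of its genes are expressed. H3K9me3 is a mark of heterochromatin, H3K4me3 marks the start of active genes, and H3K27me3 is deposited by Polycomb complexes. In other tissues the arm is known for H3K9 methylation and for the chromosome-specific protein POF.

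The sequence of chromosome 4 is poorer in G and C than that of chromosomes 2 and 3, and IP over input varied with GC content in these libraries. GC content was 35.2% on chromosome 4 against 42.2% on chromosomes 2 and 3. It was 33.8% against 42.6% in promoters, 34.8% against 42.8% in gene bodies and 37.7% against 40.7% in spacers. Transposable elements covered 24.8% of chromosome 4 against 5.79% of chromosomes 2 and 3, and 57.2% against 10.5% of the spacers. Of the windows 12.2% held no input fragment on chromosome 4, against 10.2% on chromosomes 2 and 3; in spacers it was 30.7% against 19.7%. The libraries held 942943 to 18199704 fragments on the chromosomes and 3990 to 235031 on chromosome 4, with the fewest in the H3K27me3 IP of germline replicate 1. On chromosomes 2 and 3, sequence of 30 to 35% GC had less IP over input than sequence of 40 to 45% GC in all 14 preparations. That difference was -0.66 to -1.02 on the log2 scale for H3K4me3, -0.62 to -2.38 for H3K27me3 and -0.16 to -0.30 for H3K9me3. A GC-weighted value below sets chromosome 4 against sequence of chromosomes 2 and 3 with the same GC content, and a GC-corrected gene value has the dependence on GC content across all genes removed.

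The labelled cell types were checked at the start sites of marker genes. H3K4me3 IP over input was not separated between tumour types at the germline genes vas, nanos, bam and zpg or at the cyst-lineage genes tj, zfh1 and eya (limma, adjusted p for the difference 0.448 to 0.983). The log2 values were -1.01 in germline and -0.83 in cyst at vas, and 0.41 and 0.44 at nanos. They were -0.10 and 0.13 at bam and 0.66 and 0.98 at zpg. At the cyst-lineage genes they were 0.43 and 0.29 at tj, 0.86 and 0.16 at zfh1, and 0.37 and 0.34 at eya. The estimates were thus lower in germline at each germline gene and higher in germline at each cyst-lineage gene, the reverse of the labels. Against input, vas was below and zpg above in both tumour types, and zfh1 above in germline only (limma, adjusted p under 0.05). Limma called 0 of 13686 genes in this contrast of 2 against 2 replicates. The markers thus do not bear out the labels, and the contrast cannot decide whether they go against them.

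The start-site sequences of 6 genes on which the H3K4me3 results turn are shown first, 3 with the highest values in cyst and 3 with values below input in both tumour types. Each runs 5′ to 3′ along the gene from 100 bases before to 30 bases from the annotated upstream end (Release 6, RefSeq), and the capital marks the first transcribed base. The places are chr4:443882-444011 on the - strand for lgs, chr4:314058-314187 on the - strand for Zip102B, chr4:557916-558045 on the + strand for Pur-alpha, chr4:697589-697718 on the + strand for ey, chr4:254897-255026 on the + strand for RhoGAP102A and chr4:230630-230759 on the + strand for CG1674.
lgs: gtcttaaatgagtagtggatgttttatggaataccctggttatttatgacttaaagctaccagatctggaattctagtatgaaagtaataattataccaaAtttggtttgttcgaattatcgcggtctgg
Zip102B: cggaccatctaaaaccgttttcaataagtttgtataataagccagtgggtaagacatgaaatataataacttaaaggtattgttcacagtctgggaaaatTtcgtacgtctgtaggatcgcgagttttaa
Pur-alpha: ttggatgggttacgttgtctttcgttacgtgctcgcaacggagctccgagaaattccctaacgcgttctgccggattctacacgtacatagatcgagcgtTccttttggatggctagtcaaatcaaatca
ey: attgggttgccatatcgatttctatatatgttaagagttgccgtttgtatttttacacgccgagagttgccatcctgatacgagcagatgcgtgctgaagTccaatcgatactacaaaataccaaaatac
RhoGAP102A: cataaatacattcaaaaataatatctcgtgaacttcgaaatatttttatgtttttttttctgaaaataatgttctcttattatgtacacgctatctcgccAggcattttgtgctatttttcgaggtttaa
CG1674: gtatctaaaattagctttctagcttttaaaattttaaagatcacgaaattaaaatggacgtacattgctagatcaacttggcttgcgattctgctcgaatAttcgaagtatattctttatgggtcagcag
GC content of these stretches was 33.8% at lgs, 35.4% at Zip102B, 47.7% at Pur-alpha, 40.0% at ey, 27.7% at RhoGAP102A and 33.1% at CG1674. In windows from 250 bases before to 50 bases after the start of all 80 protein-coding genes, the median GC content was 33.5%, against 37.7% for 11669 genes of chromosomes 2 and 3. On either strand the DRE motif TATCGATA was found in 8.75% of these chromosome 4 windows and in 9.36% of all 13968 protein-coding genes' windows. GAGAGA, bound by GAGA factor, was found in 10.0% and 12.3%, Motif 1 as GGTCACAC in 5.00% and 7.69%, and TATAAA, the TATA box, in 37.5% and 45.8%. Among the 6 genes TATAAA occurred in the windows of Zip102B, ey and RhoGAP102A and the other motifs in none. These are matches of letters only.

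Input coverage was measured first. Input signal of a library was taken as the log2 ratio of the mean on chromosome 4 to the mean of the same class of window on chromosomes 2 and 3. Chromosome 4 was covered above chromosomes 2 and 3 in all 14 inputs, and more so in cyst than in germline in its spacers. Fewer copies of this DNA in the tagged cells and less release of it by MNase cannot be told apart in such bulk ratios. Over all windows the 7 germline inputs ran from 0.0058 through a median of 0.31 to 0.85, and the 7 cyst inputs from 0.35 through a median of 0.56 to 1.00. The ranges overlapped, with means of 0.33 ± 0.28 and 0.60 ± 0.20 (SD, n = 7 each). The difference of -0.27 did not pass an exact two-sided permutation test (p = 0.0594). With GC weighting the means were 0.33 ± 0.12 and 0.53 ± 0.11 (SD, n = 7 each), and the difference of -0.20 passed it (exact permutation p = 0.0111).

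Promoters and gene bodies did not pass the test without GC weighting. The difference between germline and cyst was -0.22 in promoters (exact permutation p = 0.161) and -0.25 in gene bodies (exact permutation p = 0.0857). With GC weighting it was -0.14 (exact permutation p = 0.0256) and -0.17 (exact permutation p = 0.0204). In spacers the germline inputs ran from -0.15 through a median of 0.08 to 0.56 and the cyst inputs from 0.34 through a median of 0.50 to 0.86. Only the highest germline input, H3K27me3 replicate 2, lay inside the range of the cyst inputs. In spacers the difference was -0.42 (exact permutation p = 0.0035), and with GC weighting it was -0.38 (exact permutation p = 0.00175). Within the 2 flow cells with both tumour types, which leaves out the H3K4me3 inputs and the H3K27me3 input of germline replicate 3, it was -0.39 (exact permutation p = 0.0833), with -0.53 in the H3K9me3 flow cell and -0.28 in the H3K27me3 flow cell. The spacers thus fell short of the gene bodies by more in germline, by -0.24 ± 0.09, than in cyst, by -0.08 ± 0.07 (SD, n = 7 each; difference -0.16, exact permutation p = 0.00466). In the 1 Mb next to the centromeres of chromosomes 2 and 3 the input difference was 0.10 (exact permutation p = 0.164) and on the Y 0.13 (exact permutation p = 0.209), both with higher means in germline.

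**Figure D1:**
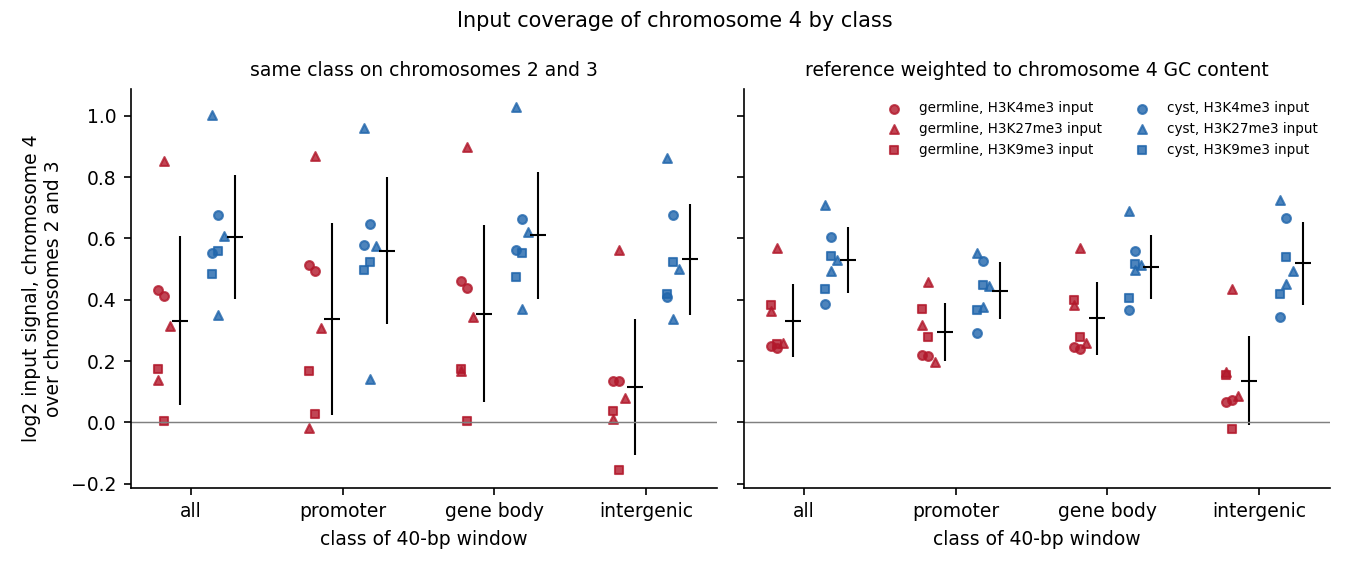
Log2 input signal of chromosome 4 over chromosomes 2 and 3 for each of 14 input libraries, by window class, against the same class (left) and against sequence weighted to the GC content of chromosome 4 (right). Points are libraries, and bars are the mean and SD of 7. The spacers show the wider gap, with germline means of 0.12 and cyst means of 0.53 in the left panel.

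The spacers form 67 segments with a total of 245261 bp and a median length of 1360 bp. Of 41 segments of 1000 bp or more, 39 had a lower mean input in germline, relative to all windows of chromosomes 2 and 3. The segments share the same libraries, and spacers of other chromosomes were not counted in this way, so the count is a description. The median difference was -0.33, with a range from -0.82 to 0.09. The longest segment had the lowest of these differences. It is the distal end of the chromosome, chr4:1271751-1348131, 76381 bp beyond Cadps, and 96.5% of it is annotated as transposable element. HeT-A made up 57.9% of it and TART-A 34.2%, both of them retrotransposons that form the ends of fly chromosomes. Against the whole of chromosomes 2 and 3 its germline inputs ran from -1.83 through a median of -1.64 to -1.40 and its cyst inputs from -0.93 through a median of -0.81 to -0.70. No germline input reached a cyst input there. The means were -1.64 ± 0.15 and -0.82 ± 0.07 (SD, n = 7 each), and their difference was -0.82 (exact permutation p = 0.000583, the smallest that 7 against 7 allow). Of its 20-bp steps 76.0% held no input fragment. In the steps with a mean input signal of at least 0.25 the values were 0.73 ± 0.15 in germline against 1.56 ± 0.07 in cyst (SD, n = 7 each). How reads of repeated sequence were placed is not given in the sources used here.

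All 44240 bp of annotated HeT-A on chromosome 4 lie in this segment, so its values describe the same sequence. They were -0.96 ± 0.16 in germline against -0.17 ± 0.06 in cyst (SD, n = 7 each). The 2 HeT-A insertions on chromosomes 2 and 3 had -0.64 ± 0.19 and -0.63 ± 0.14 (SD, n = 7 each). TART-A had so few fragments, a mean of 25.0 per input library, that it is only listed. INE-1 insertions of chromosome 4, short remnants spread through introns and spacers, had 0.43 ± 0.25 in germline and 0.68 ± 0.17 in cyst, and those of chromosomes 2 and 3 had 0.25 ± 0.22 and 0.37 ± 0.13 (SD, n = 7 each). The 1360 insertions, remnants of a DNA transposon, had -0.54 ± 0.30 and -0.33 ± 0.21 on chromosome 4 and -0.85 ± 0.29 and -0.84 ± 0.20 on chromosomes 2 and 3. The INE-1 and 1360 inputs overlapped between tumour types on chromosome 4.

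Without the longest segment the spacer input was 0.49 ± 0.25 in germline against 0.85 ± 0.20 in cyst (SD, n = 7 each), a difference of -0.35 (exact permutation p = 0.0152). The shortfall of spacers against gene bodies then turned into an excess, of 0.14 ± 0.06 in germline against 0.24 ± 0.05 in cyst (SD, n = 7 each), and the difference between tumour types was -0.10 (exact permutation p = 0.00932). The second longest spacer, chr4:401271-425570 between mir-9385 and lncRNA:CR43437, had a germline mean of 0.41 ± 0.23 and a cyst mean of 0.66 ± 0.13 (SD, n = 7 each; exact permutation p = 0.0309). The third, chr4:489491-501310 between Asator and zfh2, had 0.45 ± 0.30 and 0.83 ± 0.18 (SD, n = 7 each; exact permutation p = 0.0146). Both ranges overlapped. These segment values are single tests on 3 segments chosen by length.

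**Figure D2:**
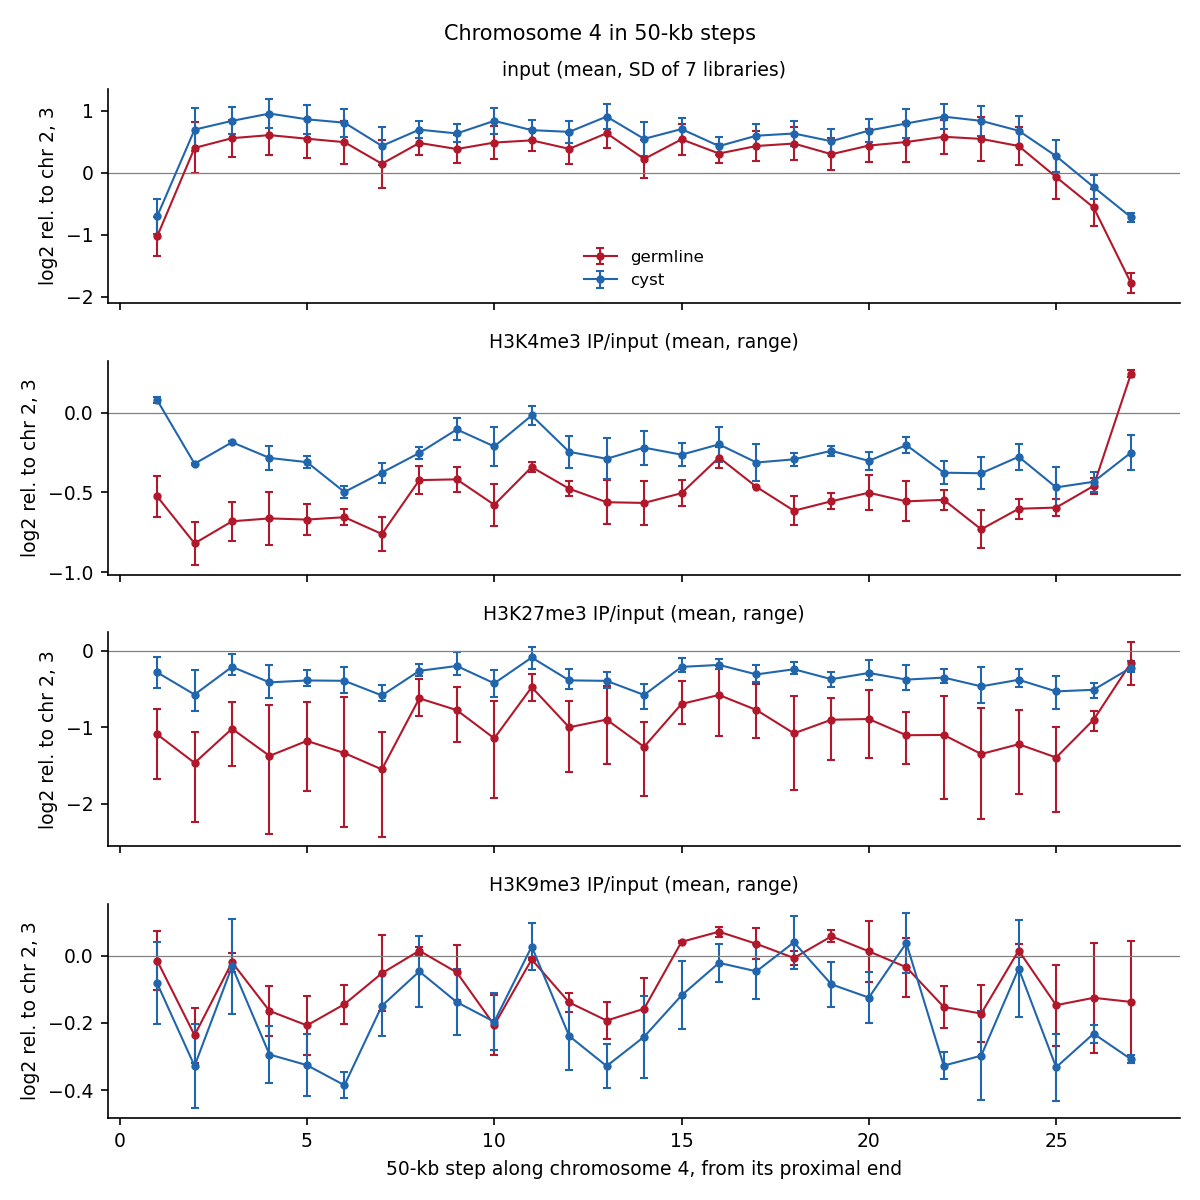
Chromosome 4 in 50-kb steps from its proximal end: log2 input (mean and SD of 7 libraries) and log2 IP over input of each mark (mean and range of replicates), relative to chromosomes 2 and 3. Input fell at both ends, to -1.78 in germline and -0.72 in cyst in the last step. H3K4me3 IP over input there was 0.24 in germline and -0.25 in cyst. No input fragment was found in 59.8% of the first 50-kb step and 81.6% of the last, so their values rest on the remainder.

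Input of genes was tested next, across all protein-coding genes with the mark of the preparation as a covariate. Over gene bodies 14 of 80 genes of chromosome 4 (17.5%) had a higher input in cyst (limma, adjusted p under 0.05), where 20.2% of all genes tested did, and 0 had a higher input in germline, where 1.67% of all did. Over start sites 29 of 79 genes (36.7%) had a higher input in cyst, where 29.5% of all did, and 0 had a higher input in germline, where 0.905% did. For gene bodies the share is near that of the genome. Of these genes 8 were called in both windows. The largest called gene-body differences were -0.44 for Slip1, -0.43 for Rad23, a repair and proteasome shuttle factor, and -0.41 for Asator, a kinase. At start sites they were -0.76 for CG46466, -0.69 for Slip1 and -0.65 for Arl4, a small GTPase. The start-site windows of CG46466 and Slip1 overlap. At the start site of Slip1 the input signal ran from 1.08 through a median of 1.64 to 1.84 in germline and from 1.99 through a median of 2.36 to 3.51 in cyst. No germline input of Slip1 reached the lowest cyst input. Of 14 listed housekeeping genes 5 were called higher in cyst over the body and 5 at the start site. Of the signalling and neuronal genes 2 of 14 bodies and 7 of 13 start sites were called. Of 10 transcription factor genes 1 body and 2 start sites were called. The counts rest on single sets of inputs: without the H3K9me3 inputs 0 bodies and 0 start sites were called, and without the H3K27me3 inputs 65 and 66.

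IP over input was then set against that of the same class on chromosomes 2 and 3. Values below 0 mean less IP per input than on the large autosomes. Without GC weighting they cannot be read as less of the mark, since IP over input varied with GC content. For H3K4me3 all windows gave -0.64 and -0.46 in germline and -0.20 and -0.34 in cyst. Every replicate was below 0, and the germline replicates lay below the cyst replicates. Their difference was -0.28 (exact permutation p = 0.333, the smallest that 2 against 2 allow). Promoters gave -0.78 and -0.52 in germline and -0.24 and -0.39 in cyst. With GC weighting the promoters gave -0.0038 and 0.09 in germline and 0.44 and 0.27 in cyst. The shortfall below 0 was thus absent from the GC-weighted promoter values of both cyst replicates and of germline replicate 2. Germline replicate 1 moved from -0.78 to -0.0038, so little of its shortfall was left. The order of the tumour types was kept. Over all windows GC weighting moved the germline replicates to -0.06 and -0.02, and the cyst replicates to 0.23 and 0.10.

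H3K27me3 had the lowest values and the widest spread. All windows gave -1.52, -0.63 and -0.83 in germline and -0.43, -0.42 and -0.20 in cyst. No germline replicate reached a cyst replicate, and the difference was -0.64 (exact permutation p = 0.1, the smallest that 3 against 3 allow). With GC weighting the values were -0.45, -0.09 and -0.37 in germline against 0.06, 0.08 and 0.12 in cyst, and the groups still did not overlap (difference -0.39, exact permutation p = 0.1). The lowest unweighted value belongs to germline replicate 1, the library with the fewest fragments.

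H3K9me3 was not above the level of chromosomes 2 and 3 on chromosome 4. All windows gave -0.13 and -0.02 in germline against -0.25 and -0.08 in cyst, and the replicates overlapped (difference 0.09, exact permutation p = 0.667). With GC weighting they gave -0.03 and 0.04 in germline and -0.08 and 0.05 in cyst. The same replicates had 0.10 and 0.33 in germline and 0.13 and 0.14 in cyst in the 1 Mb next to the centromeres of chromosomes 2 and 3. On the Y they had 0.28 and 0.45 in germline and 0.34 and 0.39 in cyst. So each preparation had a higher H3K9me3 IP over input in those regions than on chromosome 4. The X stood above chromosome 4 in each preparation as well, with 0.08 and 0.11 in germline and 0.05 and 0.06 in cyst. The order is thus not particular to the pericentric and Y sequence, and these regional values carry no GC weighting. Promoters of chromosome 4 gave -0.13 and 0.03 in germline against -0.43 and -0.24 in cyst, and spacers -0.25 and -0.05 in germline and -0.36 and -0.22 in cyst. Transposable element insertions gave -0.04 and 0.06 in germline and -0.18 and 0.01 in cyst, relative to all windows of chromosomes 2 and 3.

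**Figure D3:**
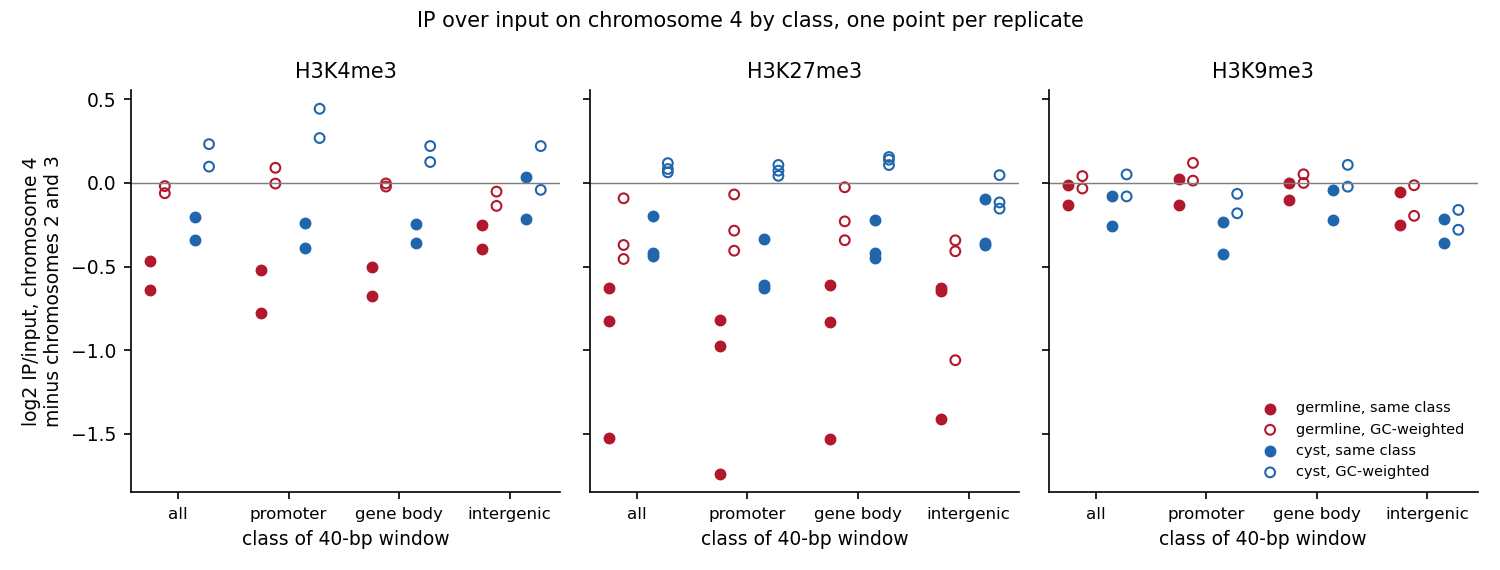
Log2 IP over input of chromosome 4 minus that of chromosomes 2 and 3, by mark and window class, with 1 point per replicate; filled points are against the same class and open points against sequence of the same GC content. Filled H3K27me3 points over all windows reach from -1.52 to -0.20, open ones from -0.45 to 0.12, and filled H3K9me3 points over all classes from -0.43 to 0.03.

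Single spacers varied in H3K9me3, and differences between them were not tested. Spacers of other chromosomes were not counted in this way, so the counts are a description. The segment with the highest mean, chr4:25551-27010, held a mean of 13 input fragments per library and is only listed. Among 41 segments of 1000 bp or more, 9 had both germline replicates above 0 and 19 had both below. In cyst 4 had both above and 29 both below. The spacer chr4:789471-800430, 10960 bp between MED26 and Sox102F and 71.3% transposable element, had 0.25 and 0.31 in germline and 0.09 and 0.23 in cyst. It was above 0 in all 4 replicates. The spacer between Kif3C and pho, chr4:1169231-1172470, had 0.08 and 0.15 in germline and 0.09 and 0.41 in cyst. Both were chosen for their high values, so these are descriptions. The distal telomeric segment was not high, with -0.32 and 0.06 in germline and -0.26 and -0.27 in cyst. For H3K4me3 that segment had 0.08 and 0.20 in germline and -0.13 and -0.37 in cyst. The order of the tumour types there was the opposite of that over the whole chromosome, a difference that was not tested.

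Around the start sites of 79 protein-coding genes the mean from 40 to 200 bp into the gene was compared with that of flanks at 1000 to 1500 bp on each side. JYalpha was left out, since its flank runs past the chromosome end. For H3K4me3 this step was -0.12 and 0.24 in germline and 0.47 and 0.31 in cyst. Only germline replicate 1 was below its flanks. The means were 0.06 ± 0.26 and 0.39 ± 0.12 (SD, n = 2 each), and the difference was -0.33 (exact permutation p = 0.333). Over 500 bp on each side of the start the means were -3.785e-05 ± 0.15 and 0.12 ± 0.05, and the difference was -0.12 (exact permutation p = 0.667). In each of the 4 preparations the step was smaller on chromosome 4 than on chromosomes 2 and 3. The gap was -0.60 and -0.34 in germline and -0.34 and -0.19 in cyst. The steps of all marks carry no GC weighting, and the part of GC content in this gap was not tested. With GC weighting the promoter class of chromosome 4 gave -0.0038 and 0.09 in germline and 0.44 and 0.27 in cyst for H3K4me3. The step was -0.68 ± 0.23 in germline against -0.60 ± 0.06 in cyst for H3K27me3 (SD, n = 3 each) and -0.21 ± 0.11 and -0.52 ± 0.07 for H3K9me3 (SD, n = 2 each), below the flanks in every replicate. Over 500 bp on each side the H3K9me3 step was -0.0057 ± 0.084 in germline, where the replicates lay on both sides of 0, and -0.22 ± 0.00059 in cyst (SD, n = 2 each). The H3K27me3 difference had an exact permutation p of 0.7 and its sign is not settled, since without germline replicate 1 it was 0.026. In the 100 bp just before the start, H3K9me3 on chromosome 4 had a mean log2 IP over input of 0.49 in germline (0.29 and 0.69) and -0.22 in cyst (-0.30 and -0.15) on the deposited scale, against 0.04 and -0.21 on chromosomes 2 and 3. That stretch was not among the planned windows, and its values carry no GC weighting and were not tested.

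**Figure D4:**
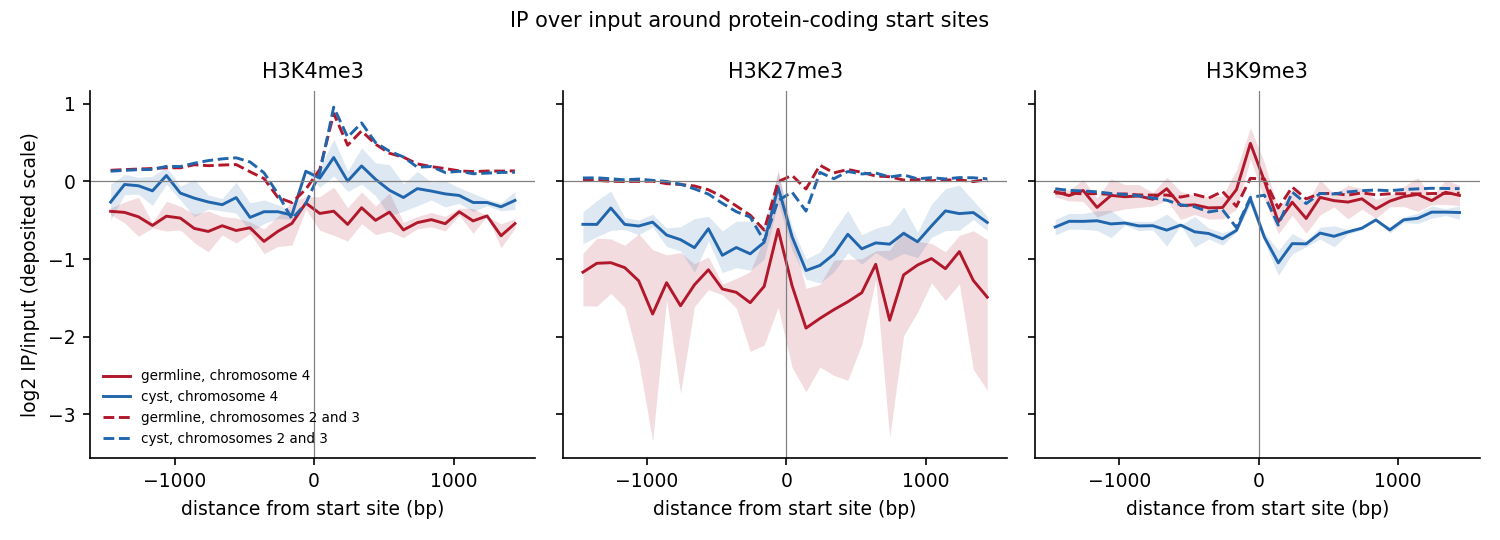
Log2 IP over input, on the deposited scale, against distance in bp from the start site, as the mean (line) and replicate range (band) of 79 genes of chromosome 4, with 11669 genes of chromosomes 2 and 3 as dashed lines. H3K4me3 at 140 bp reached 0.31 in cyst and -0.38 in germline on chromosome 4, against 0.95 and 0.87 on chromosomes 2 and 3. The values carry no GC weighting.

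Single start sites were tested for H3K4me3 against input across 13686 genes, within 500 bp on each side. In germline 1 of 79 start sites of chromosome 4 was above input, where 20.8% of all genes were, and 35 (44.3%) were below, where 4.52% of all were (limma, adjusted p under 0.05 and fold over 1.5). In cyst 7 were above, where 27.7% of all were, and 7 were below, where 3.58% of all were. The median log2 value on chromosome 4 was -0.52 in germline, where that of all genes tested was 0.21, and -0.10 in cyst, where it was 0.26. With GC correction 5 were above and 0 below in germline, and 30 were above and 1 below in cyst. The share of all genes called with GC correction is not given here. The GC-corrected median was 0.18 in germline, where that of all genes was also 0.18, and 0.50 in cyst, where it was 0.23. With TMM scaling, which took the median of all genes to -0.0038 in germline and -0.05 in cyst, 0 were above and 49 below in germline and 2 above and 24 below in cyst. Without germline replicate 1 the 35 were 4, and without germline replicate 2 they were 16. Without cyst replicate 1 the 7 above input in cyst were 1. No start site differed between tumour types, where 0.0% of all genes did; 22 (27.8%) had an unadjusted p under 0.05 and were lower in germline, where 6.52% of all were, and edgeR and DESeq2 also called 0. All germline replicates lay below all cyst replicates at 40 start sites, where they did at 21.1% of all, and above them at 0, where they did at 17.9% of all.

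The genes above input in cyst were lgs, Zip102B, Pur-alpha, Tdg, Taf3, Arl4 and CG11360, and all 7 passed with GC correction too. At lgs (legless, a cofactor of Wnt signalling; FBgn0039907, chr4:436957-443911) the log2 values were 0.16 and 0.26 in germline against 1.23 and 1.07 in cyst. Both cyst replicates of lgs stood above both germline replicates. The cyst estimate was 1.13 ± 0.23 (SE, limma, adjusted p = 0.000684). At Zip102B (a zinc transporter of the ZIP family; FBgn0039902, chr4:310930-314087) the values were -0.02 and 0.49 in germline against 1.52 and 0.69 in cyst, with a cyst estimate of 1.07 ± 0.23 (SE, limma, adjusted p = 0.000907). At Pur-alpha (a protein that binds single-stranded nucleic acid; FBgn0022361, chr4:558016-567257) they were 0.40 and 0.76 in germline against 1.27 and 0.32 in cyst, and the replicates overlapped. Tdg (thymine DNA glycosylase; FBgn0026869, chr4:538332-557854) starts on the other strand beside Pur-alpha, so their windows share sequence and their calls are not independent. Tdg, with 0.53 and 0.88 in germline and 1.13 and 0.22 in cyst, was the 1 gene above input in germline (0.65 ± 0.24 SE, limma, adjusted p = 0.040).

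The genes below input in cyst were ey, RhoGAP102A, CG1674, CaMKI, Actbeta, Syt7 and CG33521, and 6 of the 7 were below input in germline too, all but Syt7. At ey (eyeless, the Pax6 regulator of eye development; FBgn0005558, chr4:697689-721173) the values were -1.04 and -1.02 in germline against -0.69 and -2.01 in cyst. Its cyst estimate of -1.27 ± 0.23 (SE, limma, adjusted p = 0.000163) was -0.65 with GC correction (adjusted p = 0.029), and ey was the 1 start site still below input. At RhoGAP102A (FBgn0259216, chr4:254997-265574) they were -2.05 and -0.37 in germline against -0.92 and -1.04 in cyst. At CG1674 (FBgn0039897, chr4:230730-245903) they were -1.05 and -0.94 in germline against -0.72 and -1.14 in cyst, and the values of all 4 replicates lay close together. The lowest germline estimate was that of MED26, a Mediator subunit, at -1.34 ± 0.34 (SE, limma, adjusted p = 0.0058). Its replicates were -2.50 and -0.54, so replicate 1 set that value. The start-site sequences shown above differ in GC content in the 1000-bp windows used here as well, from 29.2% at Zip102B and RhoGAP102A to 40.5% at Pur-alpha. Across the 79 windows the Spearman correlation of log2 IP over input with GC content was 0.69 in germline and 0.49 in cyst, a description over genes that share libraries.

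Genes of a list chosen by function were counted next. The list names are broad labels, and lgs, a cofactor of Wnt signalling, was placed under housekeeping and growth. Of 10 transcription factor genes 2 were below input in germline (ci, the Hedgehog pathway factor, and ey) and 1 in cyst (ey), with medians of -0.25 and -0.02. Of 14 housekeeping and growth genes 4 were below input in germline and 2 above input in cyst (lgs and Taf3), with medians of -0.38 and 0.21. Of 13 signalling and neuronal genes 4 were below input in germline and 3 in cyst (CaMKI, Actbeta and Syt7, a kinase, an Activin-like ligand and a vesicle protein), with medians of -0.52 and -0.15. Of 4 chromatin and large genes 2 were below input in germline and 0 in cyst. These counts stand beside the 4.52% of all genes below input in germline, and the 27.7% above and 3.58% below it in cyst. With GC correction 0 genes of any list were below input in germline. In cyst 10 of the 14 housekeeping and growth genes were then above input, 2 of the 10 transcription factor genes, 2 of the 13 signalling and neuronal genes and 1 of the 4 chromatin and large genes. On the whole chromosome 30 of 79 start sites were above input in cyst with GC correction, and the share of all genes is not given here. The start site of unc-13, a further neuronal gene, had a mean of 2.25 fragments and was not tested.

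**Figure D5:**
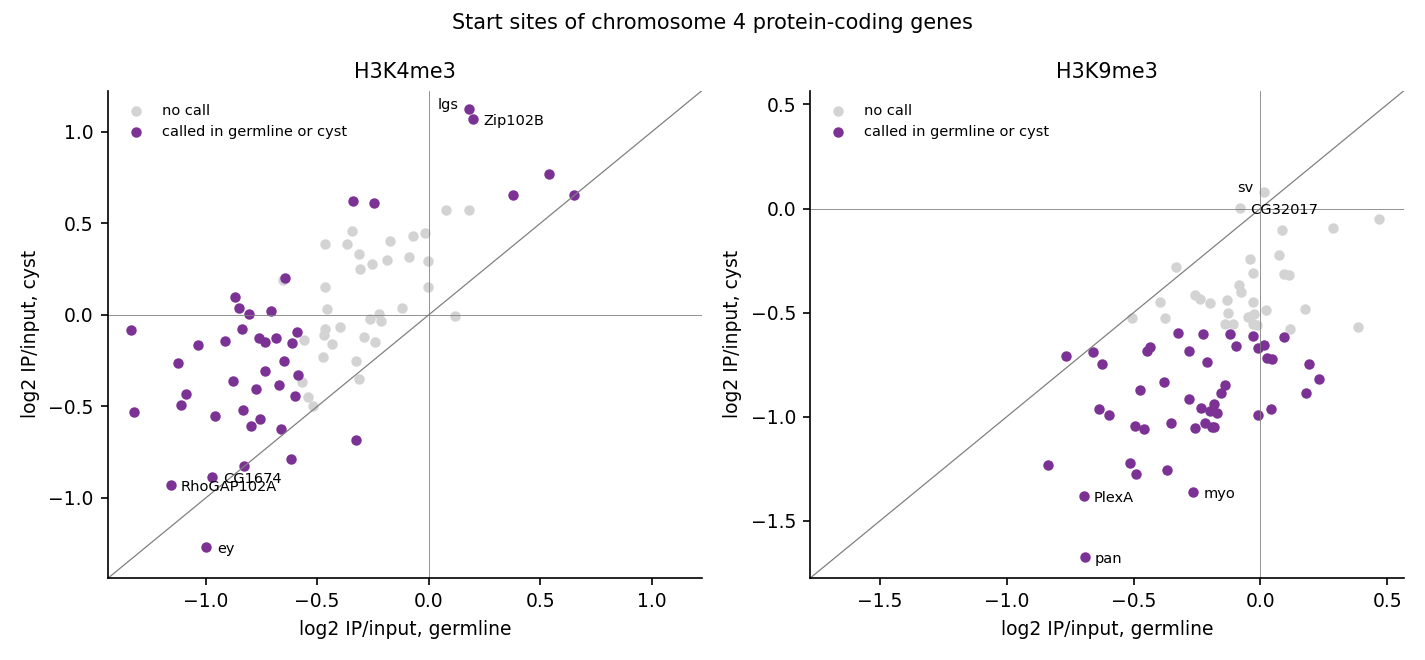
Log2 IP over input in cyst (vertical) against germline (horizontal) at 79 start sites of chromosome 4 for H3K4me3 and H3K9me3, with called genes in colour (limma, adjusted p under 0.05 and fold over 1.5 in either tumour type). For H3K4me3 lgs and Zip102B stand highest in cyst and ey lowest; for H3K9me3 most genes lie below the diagonal, with pan at -1.67 in cyst.

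H3K9me3 over gene bodies was tested across 13705 genes. In germline 0 of 80 gene bodies were above input, where 0.0657% of all were, and 0 were below, where 1.87% of all were; at an unadjusted p under 0.05, 8 were below input, where 28.4% of all were, and 1 above, where 4.87% were, and edgeR and DESeq2 each called 1 below input. In cyst 0 were above, where 0.387% of all were, and 5 were below, where 4.15% of all were (limma). The 5 were Arf4 (a small GTPase of vesicle traffic, listed as Arf102F), CG46466, CG32006, CG33941 and yellow-h. At Arf4 (FBgn0013749, chr4:1124167-1125325) the values were -0.91 and -0.35 in germline against -1.10 and -0.86 in cyst, and the cyst estimate was -0.92 ± 0.12 (SE, limma, adjusted p = 0.00739). Arf4 was the 1 of these 5 that passed with GC correction. The count was 0 without either cyst replicate. The highest estimates were those of Gyf, at 0.26 in germline and 0.28 in cyst, and they did not pass (adjusted p = 0.0935 and 0.0727). Between tumour types limma called 0 gene bodies, where 0.0% of all did, with 7 at an unadjusted p under 0.05 and higher in germline, where 4.13% of all were, and edgeR called 2. The median difference was 0.11, and it was -0.12 with GC correction, so its sign depends on that correction.

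H3K9me3 at start sites had a median of -0.16 in germline, where all genes tested had -0.12, and of -0.67 in cyst, where they had -0.30. Below input were 8 of 79 start sites in germline, where 6.62% of all 13708 genes were, and 47 in cyst, where 26.6% of all were (limma, adjusted p under 0.05 and fold over 1.5). Above input were 0 in both, where 0.153% and 0.321% of all were. With GC correction the 47 were 22, and the share of all genes called with it is not given here. The lowest cyst estimates were -1.67 at pan (pangolin, the TCF factor of Wnt signalling), -1.38 at PlexA (a semaphorin receptor) and -1.36 at myo (myoglianin, a ligand of the TGF-beta family). At pan the values were -1.28 and -0.25 in germline against -1.78 and -1.85 in cyst. At myo they were -0.51 and -0.06 in germline against -1.68 and -1.24 in cyst. At both genes the germline replicates lay above the cyst replicates. The effect was higher in germline at 12 start sites (15.2%), where 2.17% of all were, and higher in cyst at 0, where 0.0073% of all were. Among the 12 were myo, Rnf11, CG31998, Tdg, Pur-alpha, pan, mGluR, CG31997, Mitf, Dyrk3 and ci. With GC correction 1 of them, Tdg, passed, and with the replicate block 5 were called. The shares of all genes in the alternative fits are not given here. Leaving out germline replicate 2, cyst replicate 1 or cyst replicate 2 gave 0, and leaving out germline replicate 1 gave 38. Input at start sites was higher in cyst at 29 genes of the chromosome, and the part of that in these IP over input values was not tested.

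H3K27me3 over gene bodies was below input in its estimates without passing the threshold at any gene. In germline 0 of 80 genes were called, where 0.0% of all 13622 were, and in cyst 0, where 0.0514% of all were (limma). At an unadjusted p under 0.05, 69 of 80 were below input in germline, where 6.39% of all were, and 3 in cyst, where 4.58% of all were. edgeR called 0 in both, and DESeq2 called 0 in germline and 1 in cyst. The median was -0.94 in germline, where that of all genes was 0.14, and -0.41 in cyst, where it was 0.08. With GC correction the chromosome 4 median was 0.05 in germline, where that of all genes was 0.12, and 0.17 in cyst, where it was 0.09. No gene differed between tumour types in limma, where 0.0% of all did, with 0 at an unadjusted p under 0.05, where 1.5% of all were higher in germline and 1.63% higher in cyst. At 52 of 80 genes all germline replicates lay below all cyst replicates, where they did at 5.08% of all, and the reverse held at 0, where it did at 7.39% of all. The median difference was -0.57, and -0.11 with GC correction. The 10 transcription factor genes had medians of -0.46 in germline and -0.22 in cyst, the 14 housekeeping genes -0.89 and -0.51, the 14 signalling and neuronal genes -1.07 and -0.48, and the 4 chromatin and large genes -0.74 and -0.23. With GC correction these medians were, in the same order, 0.24 and 0.26, -0.05 and 0.01, 0.04 and 0.20, and 0.12 and 0.21, so that only the germline median of the housekeeping genes stayed below 0. At ey the values were -0.35, -0.14 and -0.46 in germline against -0.15, -0.04 and 0.11 in cyst. At RpS3A, a ribosomal protein gene, they were -1.06, -1.996 and -0.91 in germline against -1.68, -1.23 and -0.46 in cyst. The ey values lay above those of RpS3A in every replicate. Over these bodies GC content was 39.2% at ey and 34.4% at RpS3A, and with GC correction the estimates were 0.16 and -0.24 in germline against 0.26 and -0.47 in cyst, none of them past the threshold.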

How the data were processed

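Input and IP chromatin of 7 germline and 7 cyst preparations was measured. The deposited table holds 1 coverage signal for each library and window, per the file headers. Bowtie2 (version 2.4.5) and the build dm6 are named in the submitters' processing notes. Read filters are not known here. Chromosome ends equalled those of Release 6 for 7 of 7 chromosomes. Each library's signal, as deposited by the authors, fell on multiples of a single step (100% of values, tolerance 0.01), so whole fragments were recovered, with 0 negative values, in bins of 20 bp. Depth is given in the text; it limits counting error only. Nothing in the labels places replicates in separate cultures or animals beyond separate preparations of pooled testes, so p-values measure the spread between these samples.

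Genes were tested with limma (version 3.58.1, R 4.3.3, mean-variance trend) on log2(signal + 0.1), with 1 fit per mark over those of the 13968 protein-coding genes that had a mean of 10 or more fragments (13622 to 13708 per fit), Benjamini-Hochberg adjustment over all of them, and the windows named in the text. Such log2 values understate changes at low signal. Replicate values add 1 fragment to IP and to input. edgeR (version 4.0.16) and DESeq2 (version 1.42.0) on recovered fragments, the GC correction, other scalings, filters and pseudocounts, and fits without single replicates were alternatives. The models were tested on simulated data, and the outcome is not given here. Regions were tested by exact permutation over preparations, two-sided. Per the labels' protocols 1 solubilised preparation gave the input and the IP that share a number. The limma fit did not pair them, and a replicate block was an alternative. Across genes, the deviations of such a pair from the group means had correlations that ran from -0.14 to 0.34.

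Named genes were up to 3 per mark, tumour type and direction with the largest called difference, plus the listed genes and the 3 longest spacers; other names were chosen after their values were seen, and 1 called gene is not reported here. The chromosome, gene lists and tests were chosen with earlier results of these data known. Arf102F and bip2 of the list were matched to Arf4 and Taf3 through RefSeq synonyms.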

Additional observations from a re-analysis of the deposited data

Results flagged for a closer look

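One input library stood apart from the other 6 of its group. In the spacers of chromosome 4 the H3K27me3 input of germline replicate 2 had a log2 value of 0.56 relative to the spacers of chromosomes 2 and 3, and the nearest germline input had 0.14. Of 8 groups of 7 inputs examined for a stray value this was the 1 flagged, and chance flags about 1 in 20 groups. It was also the highest germline input over all windows.

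The input of spacers minus that of gene bodies, relative to chromosomes 2 and 3, differed between tumour types by -0.16 (exact permutation p = 0.00466, n = 7 each), and by -0.10 without the telomeric segment.

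H3K9me3 IP over input at start sites differed between tumour types at 12 genes, all higher in germline (limma, germline minus cyst, adjusted p under 0.05 over all genes), where 2.17% of all genes were. The count was 1 with GC correction and 0 with TMM scaling, with no filter and without germline replicate 2, cyst replicate 1 or cyst replicate 2. Among the 12 the log2 differences were 1.09 at myo, 1.07 at Rnf11, 1.05 at CG31998, 1.00 at Tdg, 0.98 at Pur-alpha, 0.98 at pan, 0.95 at mGluR, 0.94 at CG31997, 0.89 at Mitf, 0.86 at Dyrk3 and 0.77 at ci. The median difference over 79 start sites of chromosome 4 was 0.51, against 0.16 over all genes. Shares of all genes at the alternative settings are not given here.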

How the results depend on the processing

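The 19 region results had 164 alternative values in all, and 153 kept their direction and their side of the threshold. For the IP over input and start-site results the exact permutation test allowed no p below 0.333 or 0.1. Their side of the threshold was thus fixed in advance, and only their direction could change. GC weighting brought the input differences over all windows (-0.20), promoters (-0.14) and gene bodies (-0.17) past the threshold, and so did leaving out the H3K27me3 inputs over all windows (-0.31) and gene bodies (-0.29). Within flow cells the spacer input difference of -0.39 no longer passed. The H3K9me3 gene-body difference turned to -0.0169 with GC weighting and ran from -0.01255, without cyst replicate 1, to 0.1663, without cyst replicate 2. The H3K27me3 start-site difference turned to 0.02605 without germline replicate 1, 0.01768 over 500 bp on each side and 0.06813 over every transcript start. Leaving out the telomeric segment and all alternatives for H3K9me3 at start sites were chosen after seeing the data.

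Of 406 alternative gene counts 321 stayed within 1.5 times the main count. These include counts of 0 that stayed 0, as in most H3K27me3 fits. The shares of all genes at the alternative settings are not given here. H3K4me3 above input in germline (1) was 5 with GC correction, also with the replicate block, and 0 with a pseudocount of 0.5, no filter, TMM, DESeq2, gene bodies or without either germline replicate. Below input in germline (35) it was 0 with GC correction, also with the block, 20 with a pseudocount of 0.5, 15 in DESeq2 and 4 to 16 without a replicate. Above input in cyst (7) it was 30 with GC correction, 31 with the replicate block and GC correction, 4 with a pseudocount of 0.5 or scaling to the total of chromosomes 2 and 3, 2 with no filter or TMM, 1 over gene bodies and 1 to 4 without a replicate. Below input in cyst (7) it was 1 with GC correction, also with the block, 24 with TMM, 0 over gene bodies and 3 to 4 without a replicate. Without germline replicate 2, 1 start site was higher in cyst.

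H3K27me3 below input in cyst was 1 in DESeq2. H3K9me3 below input over gene bodies in germline (0) was 1 with a pseudocount of 0.02, scaling to the total, edgeR or DESeq2 and 8 at start sites. In cyst (5) it was 1 with GC correction, also with the block, 1 with a pseudocount of 0.5, 3 with TMM, 47 at start sites and 0 without a replicate. The effect was higher in germline at 2 bodies in edgeR and 12 start sites.

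At start sites H3K9me3 above input in germline was 1 with TMM. Below input in germline (8) it was 5 with GC correction, also with the block, 1 with a pseudocount of 0.5 or no filter, 2 with TMM, 3 in DESeq2 and 0 to 17 without a replicate. In cyst (47) it was 22 with GC correction, also with the block, or TMM, 30 with a pseudocount of 0.5 and 28 without cyst replicate 1. The effect higher in germline (12) was 1 with GC correction, 23 with a pseudocount of 0.5, 0 with no filter or TMM, 7 with scaling to the total, 6 in DESeq2, 5 with the replicate block, 0 with the block and GC correction and 0 to 38 without a replicate. The block alone moved no other count by over 1.5 times.

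Input higher in cyst over gene bodies (14) was 9 with scaling to the total, 8 with no covariate, 61 in edgeR, and 0, 65 and 0 without the H3K4me3, H3K27me3 and H3K9me3 inputs. At start sites (29) it was 4, 66 and 0 without them, and 1 was higher in germline with GC correction. The cause of these shifts was not tested. The sparsest library, an H3K27me3 IP, had 3990 fragments on the chromosome.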

Other observations

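Within gene bodies, windows in transposable element insertions had a mean log2 H3K27me3 IP over input of -0.81 ± 0.58 in germline, and of -0.16 ± 0.11 in cyst (SD, n = 3 each), relative to all windows of chromosomes 2 and 3, and windows outside insertions had -1.01 ± 0.45 and -0.34 ± 0.12 (SD, n = 3 each). For H3K9me3 the insertions had 0.04 ± 0.05 in germline and -0.04 ± 0.15 in cyst, and the other windows had -0.08 ± 0.05 and -0.10 ± 0.13 (SD, n = 2 each). Input over the insertions was 0.05 ± 0.22 in germline and 0.26 ± 0.14 in cyst, and over the other windows 0.45 ± 0.29 and 0.70 ± 0.22 (SD, n = 7 each). These differences were not tested.

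The Tc1 insertions of chromosome 4, 10 in number, had a germline input of 0.06 ± 0.21 and a cyst input of 0.15 ± 0.16, and the 16 on chromosomes 2 and 3 had -0.62 ± 0.12 and -0.52 ± 0.09 (SD, n = 7 each). Of the chromosome 4 sequence, 17000 bases are unsequenced, all of them within Mitf.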
